A study of Mus musculus with 63 samples.

Results

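The 9 genes described here encode the layered scaffold of excitatory postsynapses: Shank1, Shank2 and Shank3, then Dlgap1, Dlgap2, Dlgap3 and Dlgap4, and Dlg2 and Dlg4. They were chosen by symbol from the 55291 gene symbols of the count tables, with earlier results of these data known, and each had counts in all 63 libraries. The postsynaptic density is a protein lattice under the membrane of a dendritic spine. Dlg proteins such as PSD-95 (Dlg4) and PSD-93 (Dlg2) lie closest to the membrane and bind glutamate receptors, Dlgap proteins (also called GKAP or SAPAP) bind the Dlg proteins from below, and Shank proteins bind the Dlgap proteins and link them to Homer and the actin cytoskeleton. Several of the mRNAs, Shank and Dlgap mRNAs among them, are known to be carried into dendrites, where they can be translated close to synapses.

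The libraries came from entorhino-hippocampal slice cultures of mice of either sex, prepared on postnatal day 3 to 5 and kept for at least 18 days. Genotypes were Synpo+/+ (C57BL/6J) and Synpo-/- (B6.129-Synpotm1Mndl/Dllr, on a C57BL/6J background). The strain is described as lacking synaptopodin, an actin-binding protein of the spine apparatus. In lesioned cultures the perforant path had been cut with a scalpel (entorhinal cortex lesion, ECL), which partially denervates the hippocampus, and control cultures were not cut. The paper describes the lesioned regional libraries as taken 3 days after ECL. For the regional libraries, the dentate gyrus (DG) or the CA3 area was dissected from 1 culture per library. There were 2 control and 3 ECL libraries of Synpo+/+ CA3, 4 control and 7 ECL libraries of Synpo+/+ DG, 6 and 6 of Synpo-/- CA3, and 7 and 4 of Synpo-/- DG. For the synaptopodin coimmunoprecipitation (Synpo-coIP), 6 cultures were pooled per lysate, RNA held with the anti-synaptopodin antibody was sequenced as coIP, and an aliquot of the same precleared lysate was sequenced as input. Synpo+/+ lysates gave 5 coIP and 5 input libraries without lesion and 5 of each after ECL, and Synpo-/- lysates, whose labels give no lesion, gave 2 of each.

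Total counts ranged from 14055930 to 46043990 in the 39 regional libraries and from 11601154 to 53682143 in the 24 coIP and input libraries. The 4 Synpo-/- coIP and input libraries were the deepest of the coIP experiment, with at least 42886994 counts, and carry their own protocol text, so genotype and preparation cannot be told apart there. Prox1, which marks dentate granule cells, ranged from 120 to 217 CPM (counts per 1000000 counts of a library, TMM-scaled) in 21 of 22 DG libraries. It was 15.5 CPM in the library labelled Synpo+/+ DG ECL replicate 5, within the 12.7 to 44.0 CPM of the CA3 libraries. Fold changes of members in that group are therefore given with and without this library. In the regional libraries mean Synpo was not lower under the label Synpo-/- in either region or treatment. Control DG libraries held 41.0 to 69.3 CPM, against 19.1 to 24.5 CPM in Synpo+/+. In the coIP it was at 25.7 and 30.7 CPM in Synpo-/-, against 27.0 to 42.2 CPM in non-lesioned Synpo+/+ and 35.1 to 41.2 CPM after ECL. The count covers the whole gene, and which part the targeted allele removes is not given in the sources used here, so Synpo counts do not check the genotype labels.

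The members have long exonic sequences. Exonic length, the union of all annotated exons in GENCODE for GRCm38, was 17.89 kb for Dlgap1, 17.87 kb for Dlg2 and 13.251 kb for Dlg4, and it was 11.137 kb for Shank2, 10.514 kb for Shank1 and 9.236 kb for Shank3. The remaining Dlgap genes were shorter, with 8.451 kb for Dlgap4, 6.149 kb for Dlgap2 and 4.521 kb for Dlgap3. By this length even Dlgap3 was longer than 84.2% of the symbols. The longest single transcripts were shorter than the union, at 7173 bases for Dlgap1, 7801 for Dlg2, 6326 for Dlg4 and 9826 for Shank1. Exonic GC content split the set: it was 63.86% for Dlgap3, 62.33% for Shank3 and 61.26% for Shank1, but 45.44% for Dlgap1 and 41.73% for Dlg2.

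All 9 genes are protein coding and lie on the plus strand of GRCm38. Shank1 (ENSMUSG00000038738.15) spans 44310253 to 44360572 on chromosome 7, Shank2 (ENSMUSG00000037541.22) spans 144001928 to 144424494 on the same chromosome, and Shank3 (ENSMUSG00000022623.17) spans 89499623 to 89560261 on chromosome 15. Dlgap1 (ENSMUSG00000003279.17) lies on chromosome 17 from 69969073 to 70821413 and Dlgap2 (ENSMUSG00000047495.15) on chromosome 8 from 14095865 to 14847680. Dlgap3 (ENSMUSG00000042388.14) lies on chromosome 4 from 127169204 to 127237022 and Dlgap4 (ENSMUSG00000061689.15) on chromosome 2 from 156613705 to 156764363. Dlg2 (ENSMUSG00000052572.19), on chromosome 7 from 90476672 to 92449247, is the longest locus at 1972.6 kb, and Dlg4 (ENSMUSG00000020886.17), on chromosome 11 from 70016942 to 70047522, is the shortest at 30.6 kb. Counting ignored strand, and 5 members share a few exonic bases with another gene, from 0.28% of Dlgap4 to 3.22% of Shank1, where reads cannot be assigned to one gene.

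RefSeq start windows (GRCm38.p6, 250 bases before to 50 bases after a start) were at hand for 6 members, 11 windows in all. Shank1, Shank2 and Dlgap2 had no entry. The windows of 3 members are shown as examples, 1 of a Shank gene and 2 of Dlg genes: Shank3 is one of the 5 members called higher in the coIP of both genotypes, Dlg2 was called lower after lesion in Synpo-/- DG, a call lost with the length trend removed, and Dlg4 is one of the members not called lower in DG than in CA3. For Dlg2 and Dlg4 the window farthest upstream is printed, and the counts do not tell which start was used. Capitals mark the GC box GGGCGG or its reverse complement CCGCCC. All 3 windows are on the plus strand, at chr15:89499358-89499657, chr7:91090536-91090835 and chr11:70016953-70017252.
Shank3: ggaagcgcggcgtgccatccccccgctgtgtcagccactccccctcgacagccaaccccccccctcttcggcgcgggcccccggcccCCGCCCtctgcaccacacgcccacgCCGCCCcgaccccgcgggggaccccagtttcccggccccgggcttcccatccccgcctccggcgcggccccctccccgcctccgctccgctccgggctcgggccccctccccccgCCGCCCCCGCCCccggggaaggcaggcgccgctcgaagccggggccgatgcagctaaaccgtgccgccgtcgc
Dlg2: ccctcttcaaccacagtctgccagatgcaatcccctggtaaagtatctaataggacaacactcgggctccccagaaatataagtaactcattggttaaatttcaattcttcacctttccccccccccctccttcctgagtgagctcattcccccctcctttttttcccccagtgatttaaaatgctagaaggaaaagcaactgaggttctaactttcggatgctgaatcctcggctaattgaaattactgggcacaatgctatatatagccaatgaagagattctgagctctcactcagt
Dlg4: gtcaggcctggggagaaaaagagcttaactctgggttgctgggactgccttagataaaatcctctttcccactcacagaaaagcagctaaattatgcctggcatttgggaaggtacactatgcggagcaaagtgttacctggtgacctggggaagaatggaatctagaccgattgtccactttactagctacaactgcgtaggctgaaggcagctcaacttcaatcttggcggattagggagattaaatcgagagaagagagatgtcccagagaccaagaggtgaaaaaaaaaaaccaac
The Shank3 window held 4 GC boxes and had 81.0% GC, whereas the printed Dlg2 window had 44.7% and the Dlg4 window 46.3% with no match. Over all windows, 3 of the 11 had a GC box on either strand (in Shank3, Dlgap4 and the third Dlg4 window), against 35.66% of 32851 windows of all genes. TGACG, the half-site of a cyclic AMP response element, was found in 2 of the 11, against 20.81% of all. The TATA box TATAAA was found in 1, against 13.62% of all. None of the 3 motifs contains another, and a match is a description of the letters only.

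Levels were compared between genes as CPM per kb of exonic length, on the same TMM scale. The union of exons exceeds the longest transcript by unlike amounts, so the order and the shares below depend on this choice of length. In Synpo+/+ control DG, Dlgap1 led with 20.6 ± 1.58 CPM per kb, followed by Dlg2 with 7.97 ± 0.401, Dlgap4 with 5.57 ± 0.817, Shank2 with 5.48 ± 0.469 and Dlgap2 with 4.71 ± 0.299 (SD, n = 4). Dlg4 followed with 1.69 ± 0.184, and Shank1 (0.837 ± 0.0671), Dlgap3 (0.823 ± 0.153) and Shank3 (0.686 ± 0.115) were lowest (SD, n = 4). Dlgap4, Shank2 and Dlgap2 overlapped with their neighbours in this order, as did Shank1, Dlgap3 and Shank3, whereas Dlgap1, Dlg2, Dlgap2 and Dlg4 lay above the next gene in every library. Shank2 was thus the main Shank mRNA of these cultures, with 78.3% ± 0.57 of the summed per-kb level of the 3 Shank genes in these libraries (SD, n = 4), and with a mean of 75.4 to 81.5% over the 14 groups.

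The order differed between the regional libraries and the whole-culture input, which were made with different protocols and scaled separately. In Synpo+/+ non-lesioned input, Dlgap4 (13.9 ± 0.649 CPM per kb) overlapped with Dlgap1 (14.2 ± 0.694), and Dlg4 made up 37.4% ± 1.70 of the summed level of Dlg2 and Dlg4 (SD, n = 5), against 17.5% ± 2.29 in Synpo+/+ control DG (SD, n = 4). Shank3 was lowest in both, at 0.211 ± 0.061 CPM per kb in the input (SD, n = 5). Astrocyte markers (Gfap, Aqp4, Aldh1l1, Slc1a3, Gja1, Aldoc) summed to 17948 to 26116 CPM in these inputs and to 3071 to 3825 CPM in Synpo+/+ control DG, and their part in the different order was not tested. In tissue of mixed cell types, fewer cells of a type and less RNA per cell cannot be told apart.

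The first comparison asked which mRNAs came down with synaptopodin. In non-lesioned Synpo+/+ cultures all 9 members were higher in the coIP than in the input. Dlgap3, Shank1, Shank3 and Shank2 rose most, by 2.46-, 2.31-, 2.09- and 1.88-fold, and Dlgap4 rose least, by 1.19-fold. Of all 18222 genes tested, 29.6% were called higher, and the median log2 fold change was 0.67 for the members and 0.04 for all genes. A gene was called when its adjusted p in the quasi-likelihood test of edgeR was under 0.05, after Benjamini-Hochberg correction across every gene tested. By the protocol, coIP and input come from the same lysate, and pairing the samples by replicate number changed no call of a member.

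Among the Shank genes, Shank1 was at 12.4, 16.2, 9.42, 15 and 17.8 CPM in the 5 input libraries and at 27.3, 33.5, 28.5, 35.3 and 37.4 CPM in the 5 coIP libraries. Every coIP library was above every input library, and the ranges were separate, in either direction, for 39% of all genes tested (log2 fold change 1.21, SE 0.156, edgeR adjusted p 1.48e-05). Shank2 was at 61.4, 74.3, 69.2, 73.6 and 75.6 CPM in the input and at 131, 115, 140, 129 and 142 CPM in the coIP. The ranges were again separate (0.91, SE 0.0896, adjusted p 1.52e-06). Shank3, named in human neurodevelopmental disorders, was detected at low depth, with 35 to 99 reads per library. It was at 1.53, 2.92, 1.59, 1.77 and 1.93 CPM in the input and at 3.60, 3.5, 5.19, 4.51 and 3.42 CPM in the coIP, with input replicate 2 closest to the coIP values (1.06, SE 0.223, adjusted p 0.000965).

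Dlgap3 had the highest fold change of the members, although it was the least counted Dlgap gene. It was at 1.53, 2.62, 2.96, 3.04 and 2.03 CPM in the input and at 4.79, 7.51, 4.55, 7.25 and 5.39 CPM in the coIP (log2 fold change 1.3, SE 0.224, adjusted p 0.000200). Dlgap2 was at 34.2 to 45.1 CPM in the input and 56.2 to 68.6 CPM in the coIP (0.65, SE 0.0968, adjusted p 5.66e-05). The most abundant member, Dlgap1, was at 238 to 271 CPM in the input and 338 to 380 CPM in the coIP (0.51, SE 0.0728, adjusted p 4.00e-05). Dlgap4 was at 122, 124, 111, 115 and 117 CPM in the input and at 132, 146, 130, 142 and 145 CPM in the coIP, separate but close (0.26, SE 0.0750, adjusted p 0.00937).

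Of the Dlg genes, Dlg4 was at 26.0, 31.5, 33.3, 31.3 and 35.3 CPM in the input and at 52.8, 45.5, 56.5, 47.0 and 45.4 CPM in the coIP (0.67, SE 0.103, adjusted p 7.16e-05). Dlg2 was at 58.7, 71.8, 68.1, 70.3 and 88.7 CPM in the input and at 91.9, 86.0, 101, 106 and 98.7 CPM in the coIP. It was the member whose groups overlapped, since input replicate 5 lay above coIP replicate 2 (0.45, SE 0.107, adjusted p 0.00238).

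**Figure D1:**
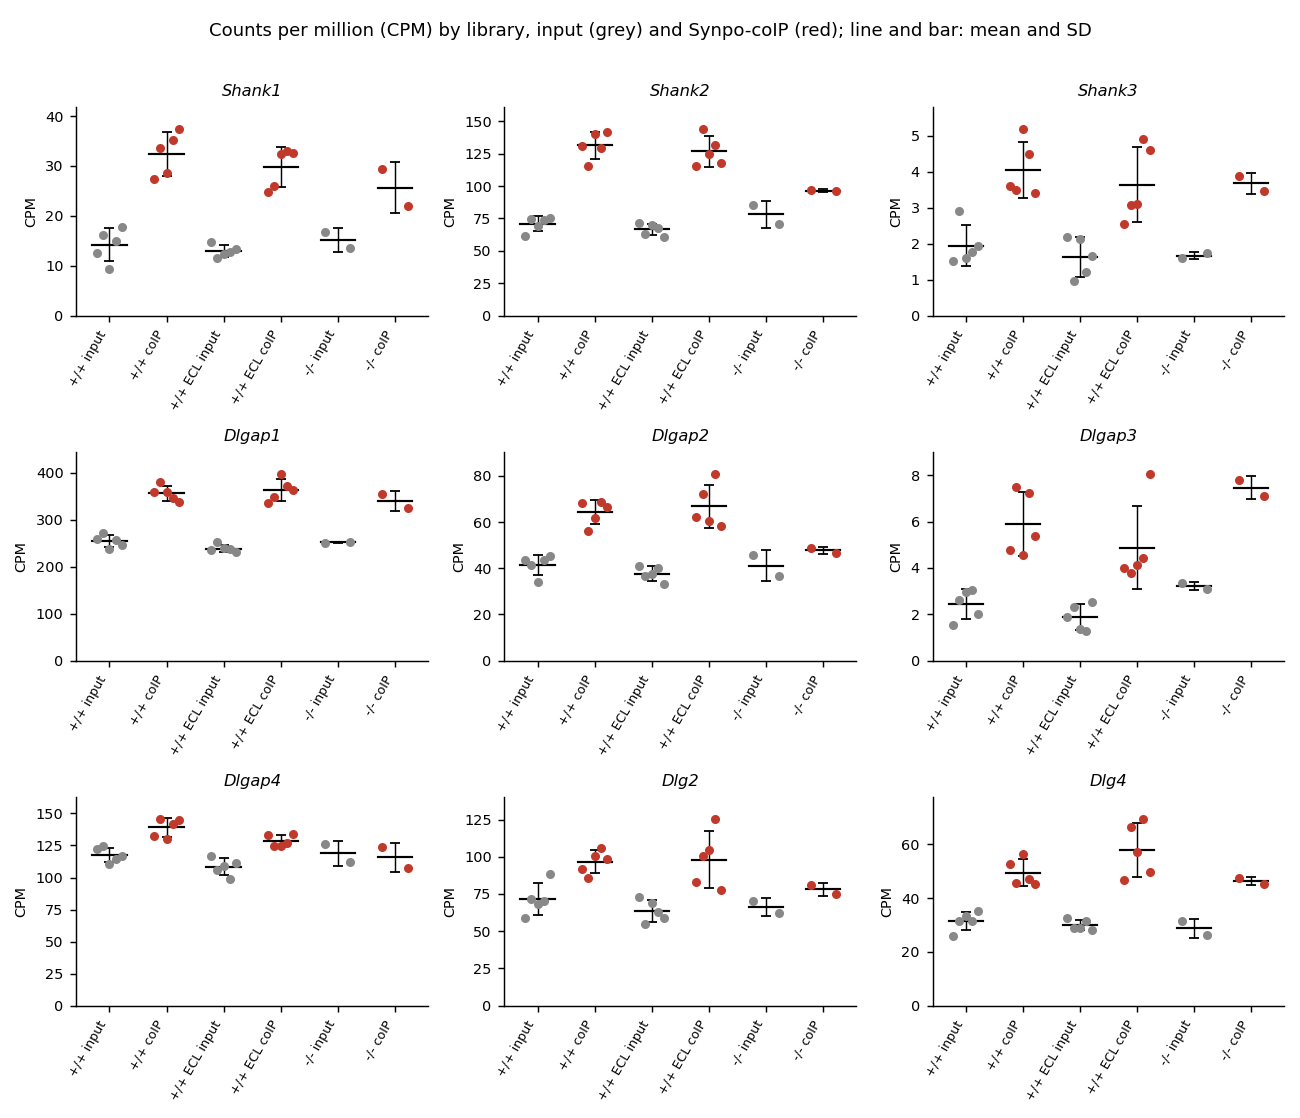
CPM of each member (vertical axes, starting at 0) in every input library (grey) and coIP library (red) of Synpo+/+ cultures without lesion and after ECL and of Synpo-/- cultures, with horizontal lines at the means and bars of 1 SD. In Synpo+/+ cultures without lesion the red points lie above the grey ones for every member but Dlg2, where the ranges overlap, and in Synpo-/- cultures the 2 Dlgap4 coIP values (124 and 108 CPM) overlap with those of the input (126 and 112 CPM).

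After ECL all 9 members were again called higher in the coIP, where 30.5% of 18229 genes were, with a median of 0.95 for the members and 0.02 for all genes. Shank1 was at 14.7, 11.5, 12.4, 12.8 and 13.4 CPM in the input and at 24.8, 26.0, 32.4, 33.1 and 32.5 CPM in the coIP (1.22, SE 0.121, adjusted p 3.82e-06). Dlg4 was at 28.1 to 32.7 CPM in the input and at 46.8, 66.6, 57.3, 69.4 and 49.7 CPM in the coIP (0.97, SE 0.125, adjusted p 2.13e-05). The ranges of the fractions were separate for all 9 members, and for 41.3% of all genes tested. The log2 fold change was 0.95 for Shank2, 1.17 for Shank3, 0.62 for Dlgap1, 0.85 for Dlgap2, 1.38 for Dlgap3, 0.26 for Dlgap4 and 0.65 for Dlg2. Without input replicate 4 the change of Dlgap4 was 0.22 and no longer called (adjusted p 0.0516).

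Whether lesion altered the step from input to coIP was tested as the difference between both comparisons. The estimate was positive for all 9 members, from 0.04 for Shank1 to 0.34 for Dlg4, on the log2 scale. By edgeR 0 members were called, as were 0 of 19581 genes (percent called 0.0), with 1 member at an unadjusted p under 0.05 (Dlg4, SE 0.157, p 0.0408), and 0 members by DESeq2.

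In the cultures labelled Synpo-/-, used as the control for the antibody, 5 members were also called higher in the coIP, against 15% of 20892 genes called higher, with 2 libraries per fraction. These were Shank1, Shank3, Dlgap1, Dlgap3 and Dlg4. Dlgap3 was at 3.35 and 3.09 CPM in the input and at 7.81 and 7.12 CPM in the coIP (log2 fold change 1.18, SE 0.236, adjusted p 0.00305). Shank3 was at 1.61 and 1.73 CPM in the input and at 3.89 and 3.47 CPM in the coIP (1.10, SE 0.298, adjusted p 0.0146). Dlg4 was at 31.3 and 26.3 CPM in the input and at 47.3 and 45.3 CPM in the coIP (0.65, SE 0.150, adjusted p 0.00661). In a joint fit of both genotypes, the change in non-lesioned Synpo+/+ minus that in Synpo-/- cultures was 0.07 for Dlgap3 (SE 0.361). It was -0.09 for Shank3 (SE 0.373) and -0.03 for Dlg4 (SE 0.187), so differences in either direction remained possible within these errors. Subtracting the separately fitted changes, which use other TMM factors, gave 0.12 for Dlgap3, -0.04 for Shank3 and 0.02 for Dlg4.

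Shank2, Dlgap2, Dlg2 and Dlgap4 were not called in these cultures. Shank2 was at 85.3 and 70.9 CPM in the Synpo-/- input and at 97.2 and 95.9 CPM in the coIP (0.27, SE 0.139, adjusted p 0.156), against 0.91 in Synpo+/+. Dlgap2, at 45.8 and 36.5 CPM in the input and 48.8 and 46.8 CPM in the coIP, changed by 0.18 (SE 0.152, adjusted p 0.387), Dlg2 by 0.21 (SE 0.138, adjusted p 0.271) and Dlgap4 by -0.07 (SE 0.138, adjusted p 0.723). Shank1, at 16.8 and 13.5 CPM in the input and 29.3 and 22.0 CPM in the coIP, rose by 0.72 (SE 0.189, adjusted p 0.0124). Leaving out 1 of the 4 libraries lowered the count of members called to 2 without input replicate 2 and to 3 without input replicate 1 or coIP replicate 1.

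The change in the cultures labelled Synpo-/- was subtracted from that in Synpo+/+ as the control of the pull-down. The fold that remained in non-lesioned cultures was 1.56 for Shank2, 1.40 for Shank1 and 1.38 for Dlgap2, over a limit of 1.3. It was 1.26 for Dlgap4, 1.19 for Dlg2, 1.09 for Dlgap3, 1.08 for Dlgap1, 1.01 for Dlg4 and 0.97 for Shank3. The same subtraction from the lesioned cultures, which uses the same Synpo-/- libraries, left 1.60 for Shank2, 1.59 for Dlgap2, 1.41 for Shank1 and 1.35 for Dlg2. The share of all genes over this limit was not determined, so passing it does not set the members apart from other genes. Tested as a difference between genotypes, 0 members and 0 of 20621 genes were called by edgeR (percent called 0.0), with 2 members at an unadjusted p under 0.05. These were Shank2 (difference 0.59, SE 0.164, adjusted p 0.505) and Dlgap2 (0.42, SE 0.182, adjusted p 0.642). DESeq2 called 1 member, Shank2 (0.60, adjusted p 0.0492).

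**Figure D2:**
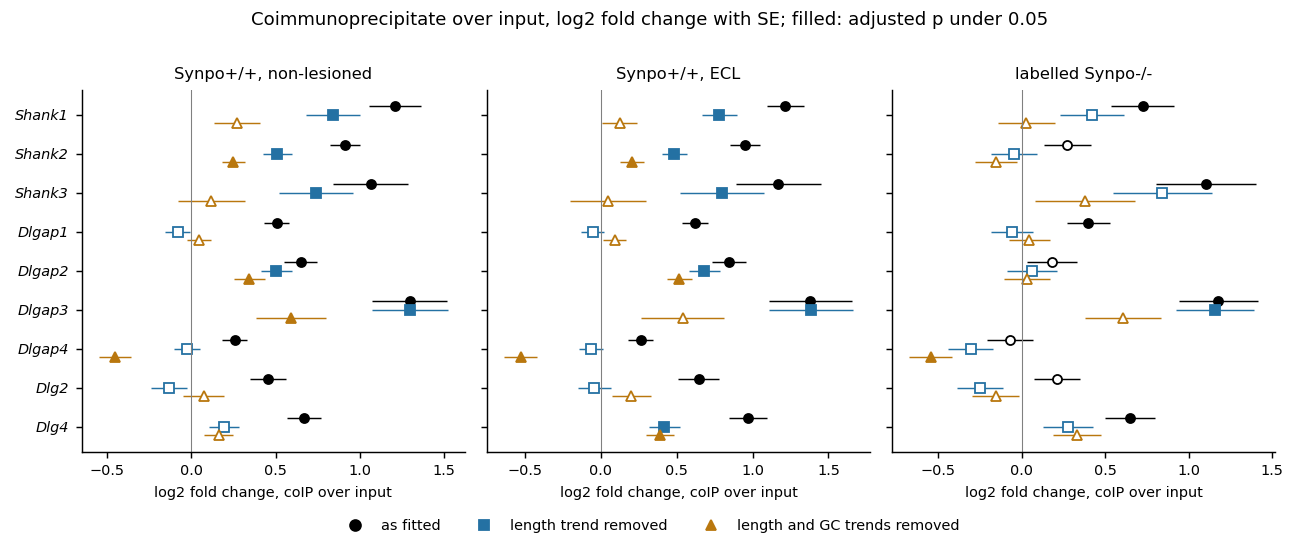
Log2 fold change of coIP over input (horizontal axis) with its SE for each member in the 3 comparisons, as fitted (black circles) and after trends with exonic length (blue squares) or with length and GC content (orange triangles) had been removed, where filled symbols mark an adjusted p under 0.05. Dlgap3 keeps 1.3 with the length trend removed in non-lesioned Synpo+/+ cultures, whereas Dlgap1, Dlgap4 and Dlg2 come to lie at or below 0.

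The coIP change of all genes rose with exonic length. In non-lesioned Synpo+/+ cultures the median over all genes tested was -0.38 in the lowest quintile of exonic lengths, -0.01 in the middle quintile and 0.40 in the longest quintile, which starts at 6.98 kb. Shank1, Shank2, Shank3, Dlgap1, Dlgap4, Dlg2 and Dlg4 belong to the longest quintile. Of these 7, Dlgap4 alone (0.26) lay below the median of that quintile. Dlgap2 (0.65) lay in the quintile below, with a median of 0.15, and Dlgap3 (1.3) in the middle quintile.

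With the length trend removed, 5 members were called higher in non-lesioned Synpo+/+ cultures, where 5184 of 18222 genes were called higher. These were Dlgap3 at 1.3, Shank1 at 0.84, Shank3 at 0.74, Shank2 at 0.51 and Dlgap2 at 0.51. Dlg4 was at 0.19, and Dlgap1 (-0.08), Dlgap4 (-0.03) and Dlg2 (-0.13) changed sign. With trends of length and GC content removed, Dlgap3 (0.59), Dlgap2 (0.34) and Shank2 (0.25) were called higher and Dlgap4 was called lower (-0.45, edgeR adjusted p 0.00126). Of all 18222 genes, 4922 were called higher and 3659 lower with both trends removed. In these fits Shank1 was at 0.27, Shank3 at 0.12, Dlg4 at 0.16, Dlg2 at 0.07 and Dlgap1 at 0.04. After ECL the members called with both trends removed were Dlgap2 (0.52), Dlg4 (0.39) and Shank2 (0.21), higher, and Dlgap4 (-0.53), lower. In Synpo-/- cultures Dlgap3 alone was called with the length trend removed (1.16) and Dlgap4 alone, lower, with both trends removed (-0.55, edgeR adjusted p 0.00692). For these fits after ECL and in Synpo-/- cultures the shares of all genes called are not given here.

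**Figure D3:**
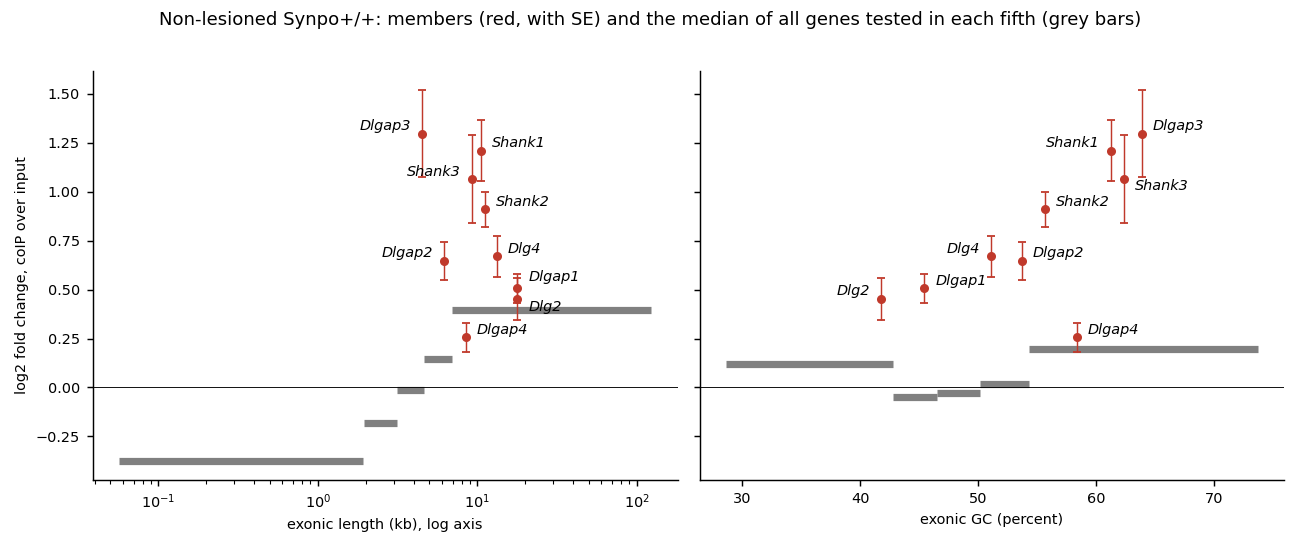
Log2 fold change of coIP over input in non-lesioned Synpo+/+ cultures (vertical axis) against exonic length in kb (left, log axis) and exonic GC content in percent (right), for the members (red points with SE) and as the median of all genes tested in each quintile (grey bars from the lowest to the highest gene of the quintile). The grey bars climb from -0.38 to 0.40 with length, and the members with the highest GC content, Dlgap3 (63.86%), Shank3 (62.33%) and Shank1 (61.26%), have the highest points.

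Marker genes of cell types were read beside these changes. The summed level of 6 neuron markers (Rbfox3, Snap25, Syt1, Tubb3, Map2, Nefl) was 7643 to 9097 CPM in the non-lesioned Synpo+/+ input and 4676 to 6001 CPM in the coIP, and 1 of the 6 was called higher and 1 lower. Astrocyte markers summed to 17948 to 26116 CPM in the input and 21139 to 36967 CPM in the coIP (2 of 6 higher). Microglia markers (Cx3cr1, P2ry12, Aif1, C1qa, Csf1r, Tmem119) were at 219 to 475 CPM and 182 to 373 CPM (2 of 6 lower), and none of the marker genes was at 0 in a group. The part of these differences in the members' change was not tested.

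The binding partners of the scaffold were read from lists of 36 further genes in all. Beside the shares called higher, 25.5% of all genes were called lower in the non-lesioned Synpo+/+ coIP, 27.8% after ECL and 16.4% in Synpo-/- cultures. In non-lesioned Synpo+/+ cultures, where 29.6% of all genes were higher, 3 of 5 genes for Homer proteins and other Dlg proteins were called higher and 0 lower, with a median of 0.36. Of 23 partners and regulators, 15 were higher and 5 lower (median 0.64), and of 8 other postsynaptic scaffolds, 4 were higher and 0 lower (median 0.38). Ank2 (log2 fold change 1.08, exonic length 35.51 kb) and Ank3 (1.05, 34.838 kb), which encode ankyrins, were higher, and Cript (-1.55, 1.712 kb), a small protein that binds the PDZ domains of Dlg4, was lower. In Synpo-/- cultures, against 15% of all genes higher, 13 of the 36 were higher and 5 lower (median 0.31), with Dynll1, a dynein light chain that binds Dlgap1, at -1.55 (adjusted p 0.000195) and Cript at -1.49. After ECL, against 30.5% of all genes higher, 26 of the 36 were higher and 4 lower (median 0.66).

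In most comparisons 0 members were called after lesion. With 9 members and the shares of all genes called that are given beside them, this does not show that their levels stayed the same. In the whole-culture input all 9 were lower after ECL, from -0.08 for Dlg4 to -0.38 for Dlgap3, and 0 were called by edgeR, with 0 at an unadjusted p under 0.05 and 0 by DESeq2, against 5.61% of 17951 genes called in either direction. In the coIP 4 were higher and 5 lower, between -0.27 for Dlgap3 and 0.25 for Dlg4, and 0 were called by either tool (0 unadjusted), against 0.314% of 18449 genes. The coIP and input libraries are those of the preceding comparisons. Of the 36 partner genes, Cit (citron kinase, -0.39, adjusted p 0.0253) and Sharpin (-0.92, adjusted p 0.0361), whose protein binds Shank, were called lower in the input, against 3.16% of all genes called lower.

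In Synpo+/+ CA3, 8 members were higher after ECL and 0 were called by edgeR or DESeq2, against 1.78% of 22340 genes, and 2 had an unadjusted p under 0.05. Shank1 was at 11.1 and 10.0 CPM in control and at 18.0, 15.9 and 14.7 CPM after ECL. The groups did not overlap, which held for 46.8% of all genes tested (0.51, SE 0.171, adjusted p 0.118). Shank3 went the other way, with 10.9 and 6.89 CPM in control and 6.55, 6.99 and 4.43 CPM after ECL (-0.67, SE 0.273, adjusted p 0.173). With 2 control libraries the spread of this comparison is poorly known.

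In Synpo-/- CA3 the changes lay between -0.15 (Dlg4) and 0.17 (Dlgap3), with 0 members called by edgeR or DESeq2, 0 at an unadjusted p under 0.05 and 0.077% of 20772 genes called. The difference of the lesion change between genotypes in CA3 was -0.50 for Shank1 (SE 0.225, adjusted p 0.259), 0.71 for Shank3 (SE 0.312, adjusted p 0.253) and -0.40 for Dlg4 (SE 0.188, adjusted p 0.281). These 3 had an unadjusted p under 0.05, and 0 members and 0 of 26821 genes were called by edgeR (percent called 0.0), with 0 members by DESeq2.

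In Synpo+/+ DG 0 members were called after ECL by edgeR or DESeq2, with 0 at an unadjusted p under 0.05, against 12.2% of 23720 genes called. Values lay between -0.19 for Dlg2 and 0.24 for Shank1. Without the library with the CA3-like Prox1 level they lay between -0.27 for Dlg2 (SE 0.0999, adjusted p 0.0759) and 0.16 for Dlg4. Shank1 was then at -0.01 and Dlgap2 at 0.01.

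In Synpo-/- DG Dlg2, which encodes PSD-93, fell after ECL. It was at 117 CPM in the lowest of 7 control libraries, 130 CPM at the median and 146 CPM in the highest, and at 88.6, 107, 107 and 88.0 CPM in the 4 ECL libraries. The groups did not overlap, as for 8.01% of all genes tested (log2 fold change -0.48, SE 0.0936, adjusted p 0.00456). It was 1 of 9 members called, against 3.36% of 23310 genes called lower, and 2 members, Dlg2 and Shank3 (-0.40, SE 0.184, adjusted p 0.212), had an unadjusted p under 0.05. With the length trend removed the change of Dlg2 was -0.33 and no longer called (adjusted p 0.0506), and with length and GC trends removed it was -0.24 (adjusted p 0.190).

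Other cell type markers moved in the same comparison. All 6 astrocyte markers were called higher after ECL in Synpo-/- DG, with a summed level of 3519 to 4264 CPM in control and 6084 to 7768 CPM after ECL. Of 6 microglia markers 5 were higher (198 to 339 CPM against 423 to 518 CPM), and 0 of 6 neuron markers were called (3376 to 5167 CPM against 2806 to 4199 CPM). Their part in the change of Dlg2 was not tested. Among the partner genes Dlg1, which encodes the related protein SAP97, fell by 0.73 on the log2 scale (adjusted p 0.000325), and Cnksr2 (-0.45, adjusted p 0.00571) and Cit (-0.57, adjusted p 0.00565) fell too, so that 5 of 36 were lower and 0 higher, against 3.36% and 5.17% of all genes. The difference of the lesion change of Dlg2 between genotypes was -0.33 (SE 0.162, adjusted p 0.478), and 0 members were called by edgeR or DESeq2 (0 unadjusted), against 0.00381% of 26245 genes. Without the Synpo+/+ ECL library with the CA3-like Prox1 level the difference of Dlg2 was -0.26 (SE 0.145, edgeR adjusted p 0.6).

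**Figure D4:**
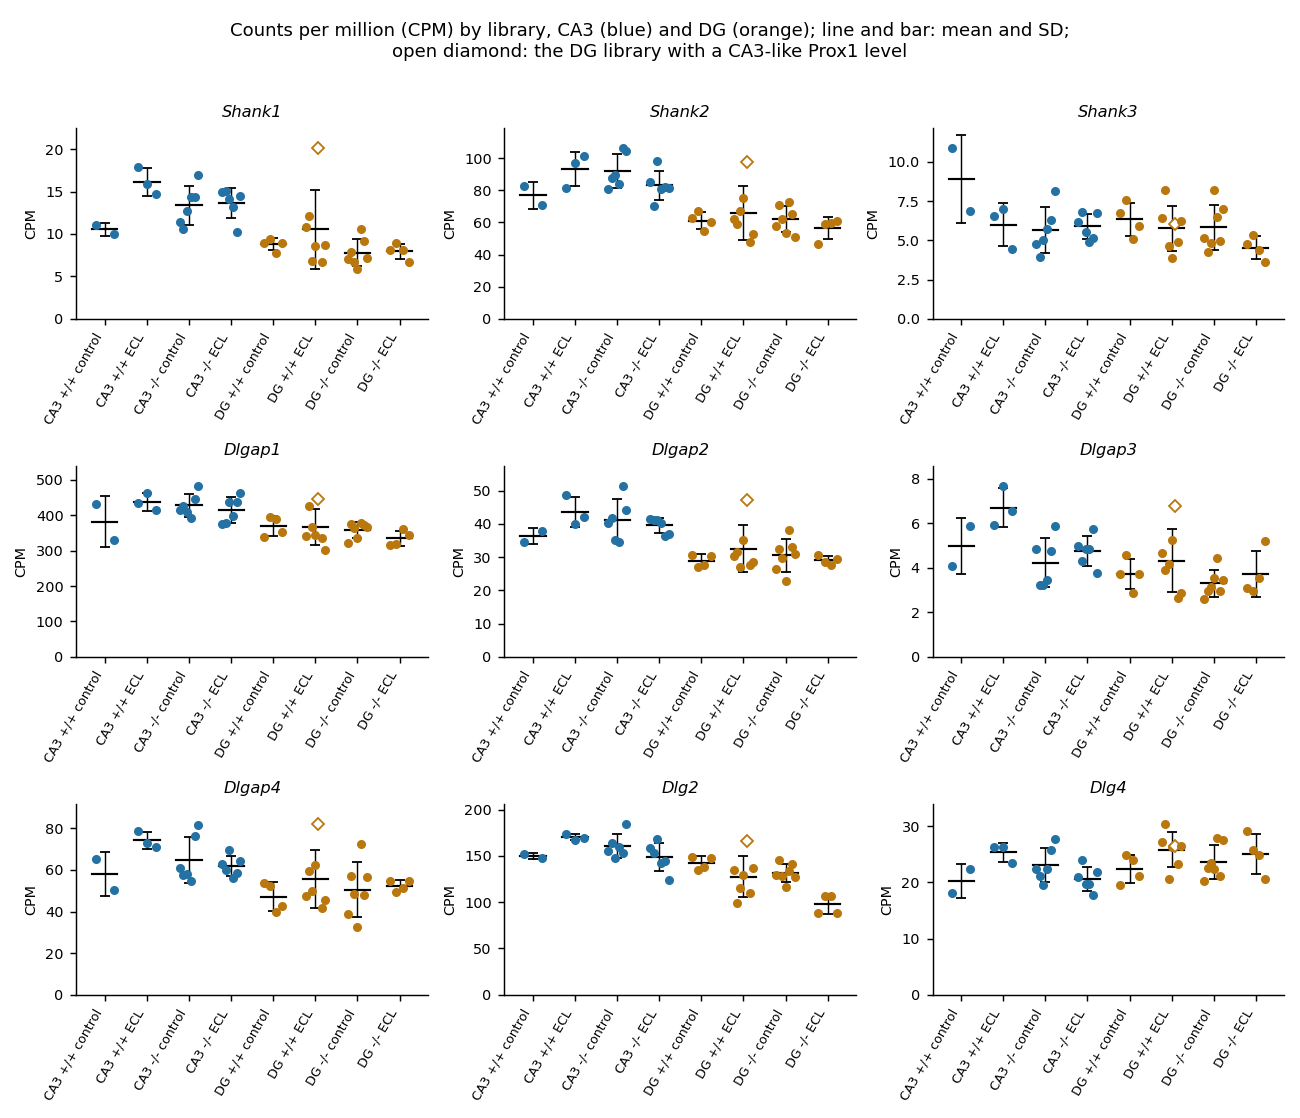
CPM of each member (vertical axes, starting at 0) in every regional library, with CA3 in blue and DG in orange, control and ECL of both genotypes, horizontal lines at the means and bars of 1 SD, and the library labelled DG with a CA3-like Prox1 level as an open diamond. The diamond is the highest point of its group for Shank1 (20.1 CPM), Shank2 (97.7 CPM) and Dlgap2 (47.2 CPM), and the 4 Dlg2 values of Synpo-/- DG after ECL (88.0 to 107 CPM) lie below all control values.

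The clearest regional pattern was a lower level of Shank1, Shank2 and Dlgap2 in DG than in CA3. In Synpo-/- control cultures these 3 were called lower in DG, against 12.5% of 21408 genes called lower. Shank1 ranged from 10.5 to 16.9 CPM in CA3 (median 13.5, n = 6) and from 5.92 to 10.6 CPM in DG (median 7.20, n = 7). Only the highest DG library reached into the CA3 range (log2 fold change -0.69, SE 0.135, adjusted p 0.000807). Shank2 ranged from 80.6 to 106 CPM in CA3 (median 88.6) and from 51.2 to 72.8 CPM in DG (median 62.4), with no overlap (-0.47, SE 0.0883, adjusted p 0.000572). Dlgap2 ranged from 34.5 to 51.3 CPM in CA3 (median 40.9) and from 22.7 to 38.0 CPM in DG (median 31.1). Its ranges overlapped (-0.33, SE 0.101, adjusted p 0.0213), and without CA3 replicate 5 it was not called (-0.27, adjusted p 0.0707).

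The other members of that comparison were not called. Dlg2 was at -0.18 (SE 0.0705, adjusted p 0.0679) and Dlgap1 at -0.15 (SE 0.0647, adjusted p 0.0969), and neither overlapped between the regions, where 11.2% of all genes did not. Both were called with the length trend removed (-0.27 and -0.25), which brought the count to 5. Dlg4 was at 0.13 (SE 0.0976, adjusted p 0.354) and Shank3 at 0.14 (SE 0.182, adjusted p 0.619).

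After ECL, in Synpo-/- cultures, 4 members were called lower in DG, against 6.24% of 22767 genes. Shank1 ranged from 10.2 to 15 CPM in CA3 (median 14.3, n = 6) and was at 8.06, 8.91, 8.13 and 6.66 CPM in DG (-0.77, SE 0.138, adjusted p 0.00153). Shank2 ranged from 70.3 to 97.9 CPM in CA3 and was at 46.4, 59.2, 59.5 and 61.0 CPM in DG (-0.54, SE 0.114, adjusted p 0.00466). Dlgap2 ranged from 36.3 to 41.5 CPM in CA3 and from 27.6 to 30.6 CPM in DG (-0.43, SE 0.0890, adjusted p 0.00398). Dlg2 ranged from 124 to 168 CPM in CA3 and was at 88.6, 107, 107 and 88.0 CPM in DG (-0.59, SE 0.109, adjusted p 0.00185). None of the 4 overlapped between the regions, nor did Dlgap1 (-0.30, adjusted p 0.0795) and Dlgap4 (-0.23, adjusted p 0.119), against 12.4% of all genes with separate ranges. DESeq2 called 6 members, with Dlgap1 (-0.33, adjusted p 0.00953) and Dlgap4 (-0.27, adjusted p 0.0243) added. Dlg4 had the opposite sign (0.29, SE 0.119, adjusted p 0.130), with 17.7 to 24 CPM in CA3 and 20.6 to 29.2 CPM in DG. These 4 DG libraries are also those of the lesion comparison in which Dlg2 fell.

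In Synpo+/+ cultures the same members were lower in DG, but 0 were called with all libraries. In control cultures Shank1 was at 11.1 and 10.0 CPM in CA3 and at 8.99, 9.46, 7.80 and 8.95 CPM in DG (-0.25, SE 0.184, adjusted p 0.549). Shank2 was at 82.9 and 71 CPM in CA3 and at 62.7, 66.9, 54.4 and 60 CPM in DG (-0.32, SE 0.139, adjusted p 0.240). Shank1, Shank2 and Dlgap2 did not overlap between the regions, with 2 CA3 libraries, where 27.6% of all genes did not. By edgeR and DESeq2 0 members were called, against 5.39% of 25656 genes, and 2 had an unadjusted p under 0.05.

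After ECL in Synpo+/+ cultures, 0 members were called by edgeR or DESeq2 with all 7 DG libraries, against 2.05% of 24029 genes, and 5 had an unadjusted p under 0.05. Without the DG library with the CA3-like Prox1 level 6 members were called lower, against 12.3% of 23965 genes called lower. These were Shank1 (-0.81, SE 0.167, adjusted p 0.00229), Shank2 (-0.58, SE 0.127, adjusted p 0.00353), Dlgap2 (-0.49, SE 0.108, adjusted p 0.00355), Dlgap3 (-0.74, SE 0.208, adjusted p 0.0184), Dlgap4 (-0.50, SE 0.120, adjusted p 0.00696) and Dlg2 (-0.44, SE 0.111, adjusted p 0.00875). Shank1 was at 18.0, 15.9 and 14.7 CPM in the 3 CA3 libraries. It was at 10.9, 12.1, 6.85, 8.6, 6.74 and 8.69 CPM in the 6 other DG libraries and at 20.1 CPM in the one left out. Dlg4 was at 0.06 (adjusted p 0.751) and Shank3 at -0.03 (adjusted p 0.95) without it.

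Cell type markers differed between the regions as well. In Synpo-/- control cultures all 6 CA3 pyramidal cell markers (Bok, Grik4, Nectin3, Iyd, Cpne4, Socs2) were lower in DG and all 6 granule cell markers (Prox1, Dsp, C1ql2, Calb1, Tdo2, Lct) higher. The 6 neuron markers summed to 6736 to 8499 CPM in CA3 and to 3376 to 5167 CPM in DG (3 of 6 lower). Their part in the members' difference was not tested. Of the 36 partner genes 6 were higher and 12 lower in DG, against 13.1% and 12.5% of all genes, with Dlg1 (1.2), Magi1 (1.25) and Cit (1.04) among the higher ones. In Synpo-/- cultures after ECL 3 were higher and 10 lower, against 7.37% and 6.24%, with Homer3, which binds Shank proteins, at -1.27 (adjusted p 0.000399).

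**Figure D5:**
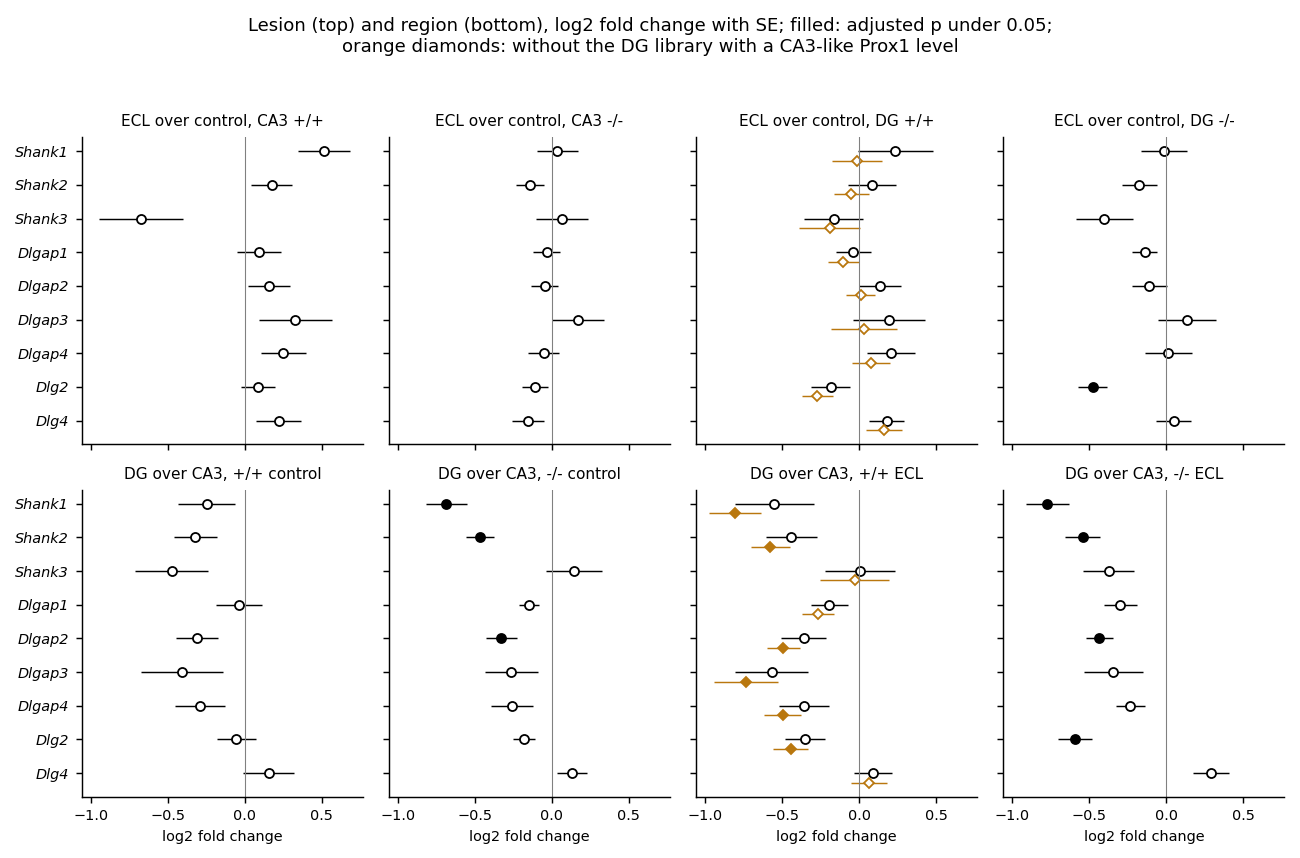
Log2 fold change with its SE (horizontal axes) for each member, ECL over control in the top row and DG over CA3 in the bottom row, with filled symbols for an adjusted p under 0.05 and orange diamonds for the fit without the Synpo+/+ DG ECL library with a CA3-like Prox1 level. Shank1, Shank2 and Dlgap2 are filled in both Synpo-/- region panels, Dlg2 alone is filled in the top row (-0.48), and the diamonds of 6 members are filled in the Synpo+/+ ECL region panel.

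Synpo-/- and Synpo+/+ cultures were compared within each region and treatment, with the same libraries as above. By edgeR 0 members were called in any of the 4 comparisons, and 0 by DESeq2. The share of all genes called was 0.00413% of 24203 in control CA3, 0.00891% of 22447 in CA3 after ECL, 0.0166% of 24143 in control DG and 0.0166% of 24100 in DG after ECL. An unadjusted p under 0.05 was found for 1 member in control CA3 (Shank3), 1 in CA3 after ECL (Dlgap3), 0 in control DG and 1 in DG after ECL (Dlg2). Shank3 was at 10.9 and 6.89 CPM in Synpo+/+ control CA3 and at 3.93 to 8.16 CPM in Synpo-/- (-0.71, SE 0.250, adjusted p 0.197). Dlgap3 and Dlgap4 did not overlap in CA3 after ECL, as was so for 4.26% of all genes tested. Dlgap3 was at 5.92, 7.67 and 6.54 CPM in Synpo+/+ and at 3.76 to 5.76 CPM in Synpo-/- (-0.45, SE 0.167, adjusted p 0.808), and Dlgap4 was at 71 to 78.7 CPM and 56.3 to 69.8 CPM (-0.21, SE 0.105, adjusted p 0.834). Dlg2 was at -0.41 in DG after ECL (SE 0.132, adjusted p 1.00) and at -0.33 without the library with the CA3-like Prox1 level. In control DG the members lay between -0.21 for Shank1 and 0.07 for Dlgap4.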

How the data were processed

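Counts were taken from 63 libraries, 39 regional and 24 coIP or input. The authors deposited whole-number counts per gene symbol, made from reads mapped to mm10 (GRCm38). The submitters' processing notes name cutadapt 3.5, STAR 2.7.8a and featureCounts 2.0.1 for 59 libraries and give no versions for the 4 Synpo-/- coIP and input libraries. Counting ignored strand. Libraries came from amplified cDNA and no molecular identifiers are described, so reads were not taken as independent molecules.

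Each comparison was fitted on its own groups in edgeR 4.0.16 (R 4.3.3), with TMM factors, the filter filterByExpr, the quasi-likelihood test and Benjamini-Hochberg adjustment over all genes tested. Differences between comparisons were interaction terms. CPM values and their ranges used TMM factors over all 39 regional or all 24 coIP and input libraries, whereas fold changes used factors of the groups compared. Alternatives were DESeq2 1.42.0, its size factors, no filter, a mean normalized count over 300, removal of lowess trends with exonic length or with length and GC content (span 0.3, genes with a mean count over 50), the replicate number as a block, and leaving out each library. Tested on simulated data for 5 comparisons, edgeR called 192 to 200 of 200 genes changed 4-fold, and 5 to 14 unchanged genes. The members changed by less than 4-fold, so these simulations do not tell how often changes of their size are called. Libraries of a group are labelled biological replicates, and the animals behind them are not given in the labels, so p-values measure the spread between cultures or culture pools.

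By the protocol, coIP and input of a replicate come from 1 lysate, and the sample titles do not say that equal numbers share a lysate. Deviations of same-numbered coIP and input libraries of Synpo+/+ correlated in every pair (r 0.105 to 0.442). Libraries of unlike number were not compared, so these values do not show that the numbers pair the samples. In the regional comparisons r varied in sign, from -0.224 between ECL and control in Synpo+/+ DG to 0.540 between DG and CA3 in Synpo-/- control cultures. The labels do not say whether the numbers pair these libraries, which were not fitted as pairs in the main fits. The genes named were the 9 members, Synpo, up to 3 genes of the 36 partner genes with the smallest p in a comparison, cell type markers, and the 5 genes most alike to the members in each experiment. One of these genes and one marker list are not reported here. The members and lists were chosen with earlier results of these data known.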

Additional observations from a re-analysis of the deposited data

Results flagged for a closer look

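Within groups of 4 to 10 libraries, 6 of 90 combinations of member and group held a library whose gap to its nearest neighbour was wide for the range of its group by Dixon's test, where 4.5 would come from chance at 1 in 20. Shank1 was highest in Synpo+/+ DG ECL replicate 5, at 20.1 CPM against 12.1 CPM in the next library, and Dlgap2 was highest in the same library, at 47.2 CPM against 35.1 CPM. This is the library with the CA3-like Prox1 level of 15.5 CPM. Shank2 was lowest in Synpo-/- DG ECL replicate 1, at 46.4 CPM against 59.2 CPM. Shank1 was lowest in Synpo-/- CA3 ECL replicate 5, at 10.2 CPM against 13.2 CPM. Dlgap3 was highest in the coIP of Synpo+/+ ECL replicate 5, at 8.05 CPM against 4.41 CPM, and Shank3 was highest in the non-lesioned Synpo+/+ input replicate 2, at 2.92 CPM against 1.93 CPM.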

How the results depend on the processing

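The count of members called in the non-lesioned Synpo+/+ coIP went from 9 to 5 with the length trend removed, 4 with length and GC trends removed and 5 with the replicate block and the length trend removed. Of all 18222 genes, 55.0% were called in either direction as fitted, and 48.9%, 47.1% and 57.4% in those fits, in that order. After ECL the count of members went from 9 to 6 with the length trend removed, also with the block, and 4 with length and GC trends removed. In Synpo-/- cultures it went from 5 to 1 with either trend correction and 2 with the block and the length trend removed. It was 3 where calls also needed a mean normalized count over 300. With 1 library left out, 2 to 5 members were called in Synpo-/- cultures. For these fits after ECL and in Synpo-/- cultures the shares of all genes called are not given here. There, changes in the count of members and in the overall share cannot be told apart. With the length trend removed the change reversed in non-lesioned Synpo+/+ cultures for Dlgap1 (-0.082), Dlgap4 (-0.026) and Dlg2 (-0.13), after ECL for Dlgap1 (-0.053), Dlgap4 (-0.065) and Dlg2 (-0.041), and in Synpo-/- cultures for Dlgap1 (-0.061). The replicate block with the length trend removed gave -0.083, -0.027 and -0.13, then -0.054, -0.066 and -0.047, and -0.064 for the same genes. With length and GC trends removed Dlgap4 reversed to -0.45 without lesion and -0.53 after ECL.

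DESeq2 called 1 member in the difference of the coIP change between genotypes, where edgeR called 0. In the lesion comparison of Synpo-/- DG, 0 members were called with the length trend, with both trends or with the block and the length trend removed, against 1. In the region comparison of Synpo+/+ ECL cultures 5 members were called with the replicate block, also with the length trend removed, and 0 to 6 with 1 library left out, the 6 without DG replicate 5. In Synpo-/- control cultures 5 were called between the regions by DESeq2 and with either trend correction and 6 with the block and the length trend removed, against 3. In Synpo-/- ECL cultures DESeq2 called 6 between the regions, against 4. In the genotype comparison of control CA3 the block called 1, also with the length trend removed. The blocked fits used only the libraries whose number occurs in both groups, which in the regional comparisons left out others: in Synpo+/+ ECL cultures DG replicates 4 to 7, replicate 5 among them, and in control CA3 Synpo-/- replicates 3 to 6. There the block and the libraries left out cannot be told apart, also in the other regional comparisons of unequal groups. The replicate block changed no call in the Synpo+/+ coIP comparisons. The cause of these changes was not tested. Of the alternatives in this paragraph, a share of all genes is given only for the fit without DG replicate 5 (12.3% called lower). In the others, changes in the count of members and in the overall share cannot be told apart. Shank3 and Dlgap3, with fewest counts, had the widest errors of the members in the coIP comparisons.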

Other observations

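Over the 39 regional libraries, the genes whose log2 CPM followed the mean of the 9 standardized members most closely were Cntnap1 (Pearson r 0.937), Mfhas1 (0.935), Syp (0.935), Ppp2r2c (0.935) and Ctnna2 (0.935), among 11939 genes. Syp encodes the synaptic vesicle protein synaptophysin and Cntnap1 an axonal adhesion protein of the junctions that flank the node of Ranvier. Over the 24 coIP and input libraries they included Pitpnm1 (0.987), Nlgn2 (0.986), Tnk2 (0.981) and Ehmt2 (0.981), among 12166 genes. Nlgn2 encodes a postsynaptic adhesion protein of inhibitory synapses. These 4 genes had exonic lengths of 5.49 to 7.03 kb and exonic GC contents of 59.0 to 61.8%. The libraries share groups and depth, and the correlations are a description of these libraries.

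Between the members, Pearson's r over the regional libraries was 0.804 for Shank1 and Shank2 and 0.862 for Shank1 and Dlgap2, but 0.121 for Shank1 and Dlg4 and -0.20 for Shank2 and Dlg4. Over the coIP and input libraries, which span both fractions, it was 0.929 for Shank1 and Shank2 and 0.931 for Shank2 and Dlg4. In Synpo+/+ CA3 after ECL, Mpp2 (log2 fold change 0.81, edgeR adjusted p 0.0393), a membrane-associated guanylate kinase, was called higher, against 1.5% of all genes. In Synpo+/+ DG, Cttn (0.54, adjusted p 0.0186), which encodes cortactin and binds Shank proteins, and Sharpin (0.62, adjusted p 0.0468) were called higher, against 7.86% of all genes. These DG values include the library with the CA3-like Prox1 level, and values of Cttn and Sharpin without it are not given.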
